A study of Homo sapiens with 4 samples.

Results

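The low-GC promoters were the 2585 protein-coding genes, of 19970 on chromosomes 1 to 22 and X, whose 5′ end in GENCODE release 44 lies in at most 45% GC over the stretch of hg38 that reaches 500 bp to each side of it. The limit separates near neighbours. NR1H4 and ZFP64, both with 44.955% GC, were just inside it and had no peak in either library. ADAMTS6 and RPGRIP1, both with 45.0549%, were just outside, ADAMTS6 with a peak in both libraries and RPGRIP1 with none. Histone H3.3 had been immunoprecipitated from MRC5 cells, fibroblasts of human fetal lung, which the study describes as the SV40-immortalized line MRC5_VA. The untreated group received no UV and the other was harvested 3 h after 10 J/m2 of UV-C, and both were the wild type. DNA of 3 replicates was pooled for each condition before sequencing, so each condition had 1 H3.3 library and 1 list of peaks, and the 2 input libraries were not analysed here.

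With 1 library per condition there is no replicate error, and the conditions were compared without a test. An effect of UV and a difference between 2 libraries cannot be told apart. The intervals given are exact Clopper-Pearson 95% intervals and cover counting error only. On these chromosomes 102907 peaks had been called in the untreated library and 89697 in the UV library, and their −log10 q, the log-scaled false discovery rate of the peak caller, started at 1.30 in both. As a check of the cell type, 8 of 18 fibroblast marker genes had a peak at the promoter without UV and 9 after UV, where the shares over all protein-coding promoters were 37.2% and 44.9%. COL3A1, COL6A3, DCN, LUM, POSTN, PRRX1, S100A4 and THY1 had none. Of 27 markers of blood, endothelium, epithelium, liver, muscle and neuron, 2 had a peak in either list, namely CD14 and SFTPC. The fibroblast markers were thus near the general share, and promoter peaks alone do not set the cell type.

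H3.3 is the histone H3 variant that is placed outside DNA replication, by HIRA at active promoters and gene bodies and by DAXX with ATRX at silent repeats. Most human promoters lie in CpG islands, where H3.3-containing nucleosomes flank the start site. Promoters of low GC content lack an island at the annotated 5′ end. They often belong to genes used in few tissues, such as odorant receptors, keratins, defensins and interferons, and carry a TATA box more often. Fibroblasts leave many of these genes silent.

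Of the sequences below, each 100 bases long and read 5′ to 3′ on the gene strand of hg38, some lie just before the annotated 5′ end and others within the H3.3 peak counted for that promoter. They are shown because the DNA at the 5′ end and the DNA under the peak were often of different kinds. CpG dinucleotides are in capitals. MTMR2, HIPK3 and PECR had the strongest peaks of the promoters marked after UV only.
MTMR2 before the 5′ end, chr11:95925316-95925415, minus strand: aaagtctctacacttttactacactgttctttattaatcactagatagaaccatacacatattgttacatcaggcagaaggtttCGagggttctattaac
MTMR2 in the peak after UV, chr11:95924124-95924223, minus strand: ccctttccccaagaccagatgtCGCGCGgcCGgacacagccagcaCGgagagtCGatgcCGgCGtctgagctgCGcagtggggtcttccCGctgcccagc
HIPK3 before the 5′ end, chr11:33256572-33256671, plus strand: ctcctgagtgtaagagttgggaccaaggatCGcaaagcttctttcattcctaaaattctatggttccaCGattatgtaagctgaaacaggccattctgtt
HIPK3 in the peak after UV, chr11:33258035-33258134, plus strand: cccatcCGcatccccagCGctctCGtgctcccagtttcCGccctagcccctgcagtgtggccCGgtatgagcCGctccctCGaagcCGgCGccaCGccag
PECR before the 5′ end, chr2:216082956-216083055, minus strand: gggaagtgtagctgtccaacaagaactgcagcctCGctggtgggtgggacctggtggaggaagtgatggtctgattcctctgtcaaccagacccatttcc
PECR in the peak after UV, chr2:216082233-216082332, minus strand: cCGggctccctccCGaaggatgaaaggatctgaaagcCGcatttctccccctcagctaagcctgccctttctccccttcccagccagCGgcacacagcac

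ABCC2 and SLC35A3 were among the 3 strongest of the promoters marked without UV only, with ARHGDIB.
ABCC2 before the 5′ end, chr10:99782540-99782639, plus strand: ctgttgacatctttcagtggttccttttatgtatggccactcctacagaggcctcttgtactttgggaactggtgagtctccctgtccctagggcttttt
SLC35A3 before the 5′ end, chr1:99969251-99969350, plus strand: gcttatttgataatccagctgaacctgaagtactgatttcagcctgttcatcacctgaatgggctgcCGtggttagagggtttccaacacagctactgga

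KLF9 and ARSB had the strongest peaks after UV of the promoters marked in both libraries.
KLF9 before the 5′ end, chr9:70414658-70414757, minus strand: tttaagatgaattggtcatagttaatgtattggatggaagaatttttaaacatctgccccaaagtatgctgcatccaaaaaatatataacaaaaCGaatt
KLF9 in the peak after UV, chr9:70413264-70413363, minus strand: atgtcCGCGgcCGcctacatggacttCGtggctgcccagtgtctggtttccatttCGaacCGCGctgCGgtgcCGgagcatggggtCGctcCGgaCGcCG
ARSB before the 5′ end, chr5:78986088-78986187, minus strand: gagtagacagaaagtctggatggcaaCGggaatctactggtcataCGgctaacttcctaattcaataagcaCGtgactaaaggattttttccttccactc
ARSB in the peak after UV, chr5:78985007-78985106, minus strand: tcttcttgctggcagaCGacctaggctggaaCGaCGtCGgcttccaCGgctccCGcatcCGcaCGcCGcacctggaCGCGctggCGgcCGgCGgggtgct

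The following stretches were chosen after the values were seen, because the peaks they come from are themselves poor in GC.
ANKRD1 in the peak after UV, chr10:90922040-90922139, minus strand: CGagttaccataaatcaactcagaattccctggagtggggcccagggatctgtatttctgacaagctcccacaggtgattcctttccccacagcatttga
FAP in the peak without UV, chr2:162245280-162245379, minus strand: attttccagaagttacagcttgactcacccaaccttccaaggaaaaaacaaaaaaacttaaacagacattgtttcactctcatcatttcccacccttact

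The stretch in the MTMR2 peak held 10 CpG and 69% GC, against 1 CpG and 34% before the 5′ end, and that in the ARSB peak held 14 CpG against 3. Peaks at FAP and ANKRD1 were different, with 0 and 1 CpG in their stretches. At PECR the contrast was smaller, with 62% GC and 4 CpG in the peak against 56% and 1 before the 5′ end. The middle of the stretch in the peak lay 234, 286 and 128 bp from the summit at MTMR2, KLF9 and PECR.

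Peaks at low-GC promoters were few in both libraries. A promoter was counted as marked when a peak interval came within 1 kb of the gene 5′ end. Without UV, 200 of the 2585 had a peak, or 7.74% (95% interval 6.74 to 8.83%), where the share over all protein-coding promoters was 37.2%. After UV, 182 had one, or 7.04% (6.08 to 8.10%), against 44.9% over all. Both lists held a peak at 130 members (5.03%, against 34.4% of all promoters). A further 52 had a peak after UV only, which is 2.01% (1.51 to 2.63%) against 10.5% of all promoters, and 70 without UV only, which is 2.71% (2.12 to 3.41%) against 2.72%. No peak was listed at 2333, or 90.3%. The promoters marked without UV only were thus as frequent among the low-GC promoters as elsewhere, and those marked after UV only were rarer.

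The 2 directions of difference were balanced differently from the other promoters. Of the 122 low-GC promoters with a peak in 1 list only, 52 were marked after UV, or 42.6% (33.7 to 51.9%). Of 2511 such promoters above the GC limit, 2038 were, or 81.2% (79.6 to 82.7%), and the intervals do not overlap. Among low-GC promoters with a peak without UV, 65% (58.0 to 71.6%) also had one after UV, whereas 93.4% (92.9 to 94.0%) of the others did. In the opposite sense the values were close, since 71.4% (64.3 to 77.9%) of low-GC promoters marked after UV had been marked without it, and 76.8% of the others.

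This balance changed steadily with promoter GC. In the class of at most 35% GC, 4 of the 15 promoters with a peak in 1 list only were marked after UV (26.7%, 7.79 to 55.1%). The share was 30.3% (10 of 33) between 35 and 40% GC and 51.4% (38 of 74) between 40 and 45%. Above the limit it went from 60.5% between 45 and 50% GC to 93.0% above 70% GC. The share of promoters with any listed peak moved the same way: 3.81% without UV and 2.03% after UV in the lowest class, 10.4% and 10.5% between 40 and 45% GC, 59.8% and 72.3% above 70% GC.

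**Figure D1:**
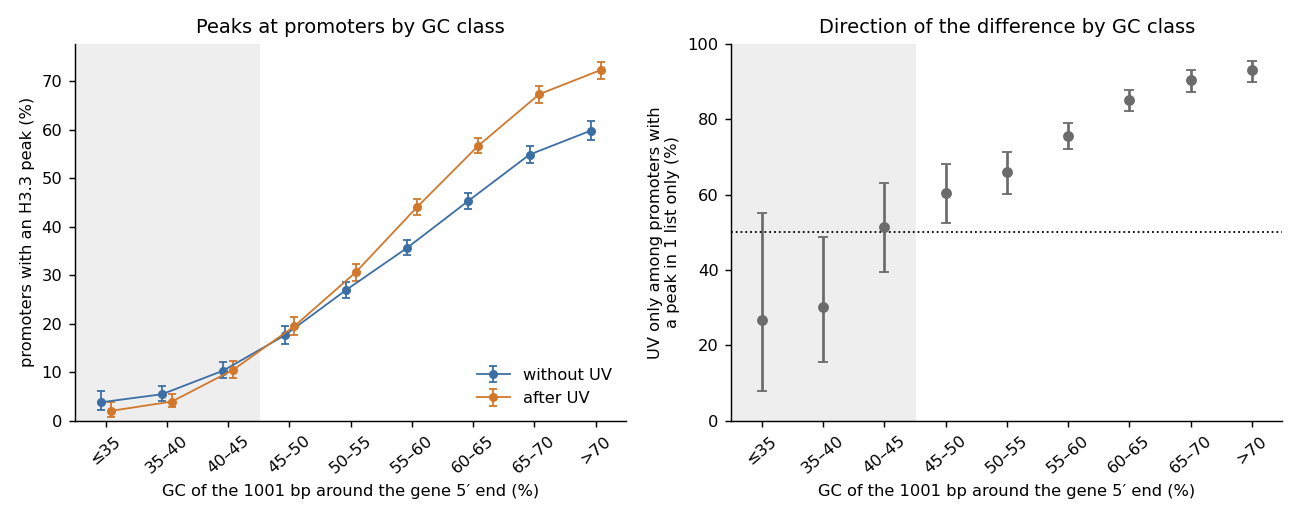
Left, percent of protein-coding promoters with an H3.3 peak within 1 kb of the gene 5′ end, in the library without UV (blue) and after UV (orange), by GC class of the promoter. Right, percent marked after UV only among promoters with a peak in 1 list only; bars are exact 95% intervals for counting error, and the shaded classes are the low-GC promoters, where the share was 26.7%, 30.3% and 51.4%.

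Most peaks at low-GC promoters lay beside the annotated 5′ end. An interval covered the 5′ end at 13 of the 200 promoters with a peak without UV (6.50%, 3.51 to 10.9%) and at 8 of the 182 after UV (4.40%, 1.92 to 8.48%). At the other promoters these shares were 34.6% and 47.9%. The summit, the point of highest signal, lay more than 500 bp downstream at 106 of 200 without UV and 110 of 182 after UV, and the median distance was 601 and 675 bp downstream. Since the rule takes GC within 500 bp of the 5′ end, a GC-rich interval can lie there only in part. In the gene's own annotation, 73 of the 182 summits after UV were in an intron, 33 in a non-coding part of an exon, 16 in a coding exon, 55 upstream and 5 beyond the gene's far end.

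**Figure D2:**
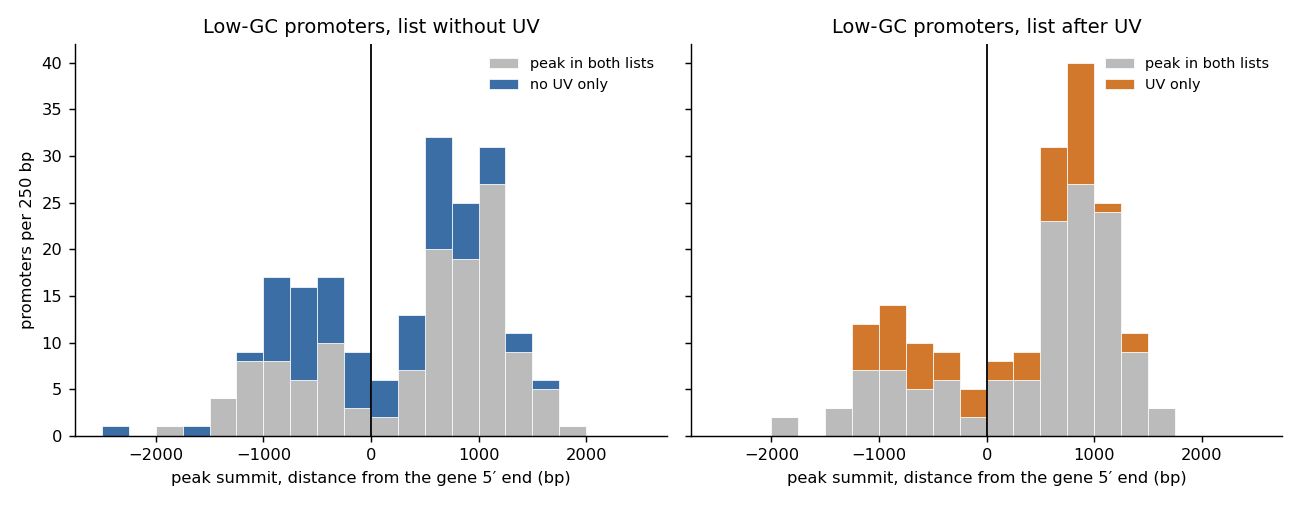
Number of low-GC promoters per 250 bp of distance between the gene 5′ end (black line) and the summit of its strongest peak, without UV (left) and after UV (right). Grey, peaks in both lists; colour, peaks in 1 list only. More than 500 bp downstream lay 106 of 200 and 110 of 182 summits, and few lay at the 5′ end.

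Many of these genes have another start. Among members with a peak in both lists, the start of the Ensembl canonical transcript lay more than 500 bp from the gene 5′ end in 87 of 130, and in 65 of 130 that start had more than 55% GC. The corresponding counts were 36 and 31 of 52 after UV only, 32 and 16 of 70 without UV only, and 786 and 399 of 2333 without a peak. Another gene started within 2 kb in 43 of 130 members in both lists and 254 of 2333 without a peak. This held for 12 of 52 after UV only and 15 of 70 without UV only. For 1854 members the canonical start was itself of low GC. These had a peak in 5.18% without UV and 3.56% after UV, with 49 in both lists, 17 after UV only and 47 without UV only, so that 26.6% (16.3 to 39.1%) of those in 1 list only were marked after UV. For the other 731 members the share was 60.3% (35 of 58, 46.6 to 73.0%). Of the 731 low-GC promoters with 1 annotated start, 3.69% (27) were marked without UV and 2.74% (20) after UV.

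The GC content of the peaks differed between the classes. Peaks at promoters marked without UV only had a median GC of 46.6% (quartiles 41.2 and 49.8%), those after UV only 51.2% (47.5 and 61.0%), and those in both lists 54.1% before and 55.3% after UV. At the other promoters peaks without UV only also had the lowest median, 55.6%, against 68.4% after UV only. Those in both lists had 69.5% before and 69.0% after UV there. At most 45% GC was found in 30 of 70 peaks without UV only (42.9%, 31.1 to 55.3%) and in 5 of 52 after UV only (9.62%, 3.20 to 21.0%). More than 55% GC was found in 2 of the 70 and in 20 of the 52. The lists differed as wholes too, with 21.96% of all peaks at or below 45% GC without UV and 14.5% after UV, and the part of this shift in the counts at promoters was not tested.

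Peaks were also counted by their own GC content, a step chosen after the data were seen. With peaks above 55% GC alone, 26 low-GC promoters were marked after UV only and 3 without UV only, which is 89.7% (72.6 to 97.8%), beside 86.7% (85.3 to 88.0%) at the other promoters. With peaks of at most 45% GC alone, 9 were marked after UV only and 52 without UV only, which is 14.8% (6.98 to 26.2%), beside 28.7% (22.5 to 35.6%) at the others. With peaks above 45 and up to 55% GC alone, 41 were marked after UV only and 49 without UV only, which is 45.6% (35.02 to 56.4%), beside 41.9% (39.2 to 44.8%) at the others. The intervals of low-GC promoters and the rest thus overlapped within each of these 3 ranges, although the GC-poor values lay apart.

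**Figure D3:**
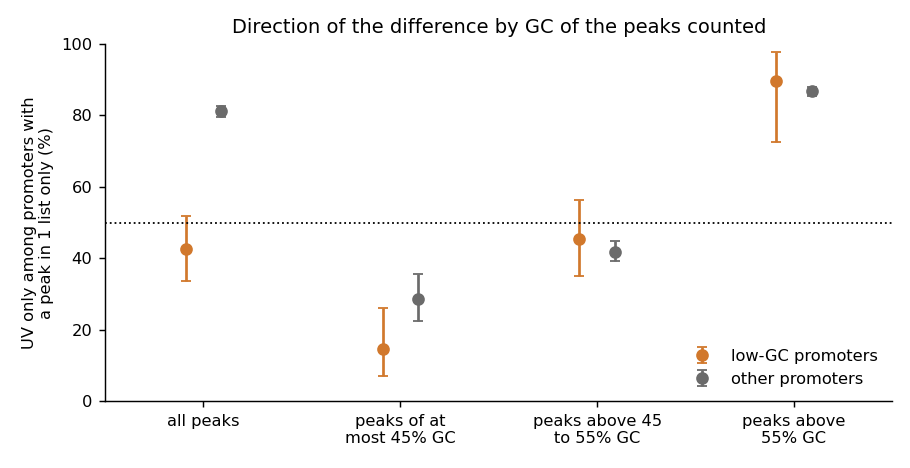
Percent marked after UV only among promoters with a peak in 1 list only, when all peaks, peaks of at most 45% GC, peaks above 45 and up to 55% GC, or peaks above 55% GC are counted; orange, low-GC promoters; grey, other protein-coding promoters; bars, exact 95% intervals for counting error. The intervals are apart over all peaks (42.6 and 81.2%) and overlap within each of the 3 ranges of peak GC.

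The DNA under the peaks was sorted into 3 kinds, also after the data were seen. The first was DNA above 55% GC, as at MTMR2 or ARSB. The second, of at most 55% GC, held at least 50 bases of words of 13 bases that occur at least 100000 times in hg38. There are 728 such words. The commonest, CTGTAATCCCAGC, occurs 682260 times and belongs to Alu, the most frequent short repeat of the human genome. The third was DNA of at most 55% GC without such words, as at FAP. Among promoters marked after UV only the kinds had 20, 24 and 8 members, among those marked without UV only 2, 39 and 29, and among those in both lists (peak after UV) 67, 53 and 10. The share marked after UV among low-GC promoters in 1 list only was 90.9% (20 of 22) for peaks above 55% GC. At most 55% GC, it was 38.1% (24 of 63, 26.1 to 51.2%) with repeated words and 21.6% (8 of 37, 9.83 to 38.2%) without them. Of the other promoters, 1841 were marked after UV only and 239 without UV only by peaks above 55% GC. Their counts were 160 and 177 with repeated words, and 37 and 57 without them. In both groups, promoters marked after UV only were thus the more numerous above 55% GC alone, so this pattern was not particular to low-GC promoters. Repeated words lay in the strongest peak at 48.5% of the low-GC promoters marked without UV and 45.6% of those marked after UV, against 17.8% and 12.7% at the other promoters. They were frequent in the lists as wholes, in 64.8% of all peaks without UV and 59.2% after UV, against 18.6% of consecutive 450-bp stretches of chromosome 1. Within 1 kb of the 5′ end they occurred at 34.7% of the low-GC promoters and 35.5% of the others, but at 62.9% of the low-GC promoters marked without UV only, 65.4% of those marked after UV only and 31.9% of those without a peak. Reads of such repeats can fit many places in the genome, and how the authors treated them was not given in the sources used here.

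**Figure D4:**
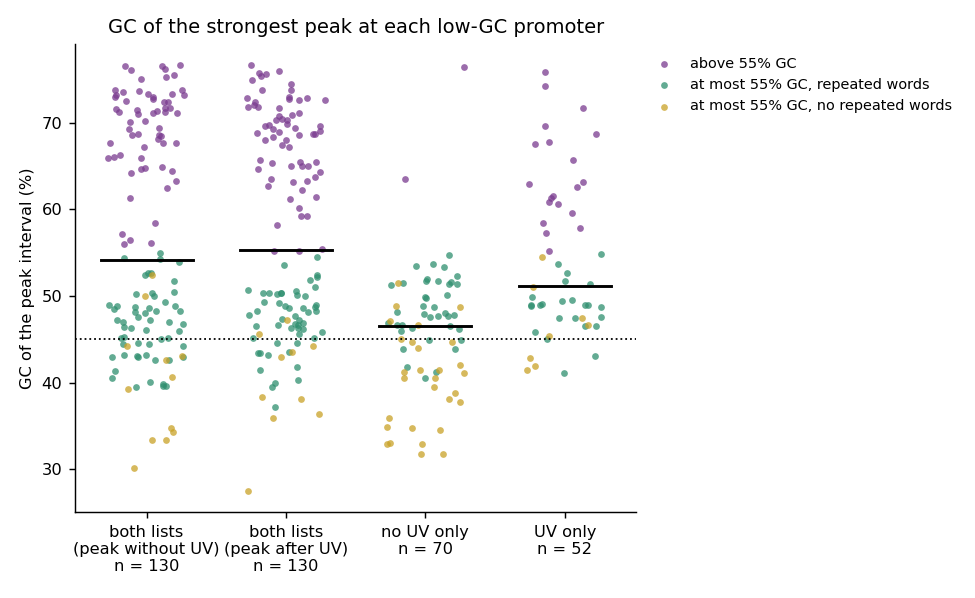
GC content (%) of the interval of the strongest peak at each low-GC promoter, 1 point a promoter, by class; black bars are medians (54.1, 55.3, 46.6 and 51.2%) and the dotted line is 45%. Purple, above 55% GC; green, at most 55% GC with repeated words; yellow, at most 55% GC without them, a kind with 29 of 70 promoters without UV only and 8 of 52 after UV only.

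The 52 promoters marked after UV only were 42.6% of those in 1 list only (33.7 to 51.9%), an interval that includes an even split. Of these 52 promoters, 5 had a peak of at most 45% GC and 20 a peak above 55% GC. The strongest was MTMR2, a phosphatase of phosphoinositides, with a −log10 q of 55.9 and an 8.81-fold enrichment over local background, followed by the protein kinase HIPK3 (47.6). Both were decided by the window, however. Their peaks after UV overlapped a peak without UV whose near edge lay 1149 and 1010 bp from the 5′ end, beyond the limit of 1 kb, and with a window of 2 kb both genes were marked in both lists. The histone gene H2BC9 (9.99) and RPRD2 had overlapping peaks without UV in the same way, and a peak without UV lay within 3 kb of the 5′ end at 22 of the 52. The latter is 42.3% (28.7 to 56.8%), against 32.0% (652 of 2038) of the other promoters marked after UV only.

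At 14 promoters the peak after UV had a −log10 q of at least 5 and no peak without UV lay within 3 kb. The strongest was PECR, an enoyl-CoA reductase of peroxisomes, with a −log10 q of 30.4, a 6.52-fold enrichment and 58.4% GC in the interval chr2:216081844-216082396, whose summit lay 800 bp downstream in an intron. B3GALT9, of the family of galactosyltransferases, reached 23.6 with an 8.72-fold enrichment and 62.6% GC at chr9:120792935-120793383, 779 bp downstream in a non-coding part of an exon. The peak of FER, a cytoplasmic tyrosine kinase, reached 17.5 with 63.0% GC at chr5:108748196-108748689, 632 bp downstream. DNAI3, which encodes a chain of axonemal dynein, had 11.7 and lay 864 bp upstream, and the Golgi protein gene DYM had 11.7 with 71.7% GC. FMC1, an assembly factor of mitochondrial ATP synthase, had 7.58. Values of 6.62 and 6.60 were found at ERI1, the exonuclease that trims histone mRNA, and at ST7L. PDGFRA, the receptor for platelet-derived growth factor that marks fibroblasts, had 5.32 with 67.6% GC at chr4:54229849-54230474, 925 bp downstream in an intron. These 9 peaks were all above 55% GC, and that of FMC1 also held repeated words.

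Repeated words lay in the remaining 5 of the 14 as well. ARL14EPL had a −log10 q of 14.7 with 48.9% GC at chr5:116032673-116033134, and 135 of its 462 bp were in repeated words. PDP1, the phosphatase that activates pyruvate dehydrogenase, had 7.08, LMO7 6.97, CLEC3B, which encodes the plasminogen-binding protein tetranectin, 5.999, and LHFPL2 5.31, and each held between 148 and 213 bases of repeated words. GPSM2, which orients the mitotic spindle, had 10.2, with the nearest peak without UV 1706 bp from its 5′ end.

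A peak of at most 55% GC without repeated words was found at 8 of the 52, chosen here after their values were seen. The uncharacterized ENSG00000285446 had a −log10 q of 7.89. VEPH1 had 4.11, TM4SF4 3.04, RHOBTB3 2.98, NCOA7 2.23, SPTLC3, a subunit of serine palmitoyltransferase, 2.19, the histone gene H3C6 2.09, and ANKRD1, a muscle and stress-response gene known as a target of YAP, 1.51. SPTLC3 and ENSG00000285446 were the ones of this kind with a summit within 50 bp of the 5′ end, at 47 and 32 bp. Of the 52, the interval had at most 45% GC at GRAMD2B, RHOBTB3, H3C6, PLAC8L1 and ANKRD1.

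The other promoters marked after UV only included ENSG00000276087 (16.3), ACBD5 (11.8), a tether of peroxisomes to the endoplasmic reticulum, IL17D (8.14), a cytokine, ZFAND2B, CCDC80, CPM, FPR3, OCRL, PPFIBP1, SLC25A28, CFAP141, ZNF217, EXOSC3, SRPK2, HEATR4, RP1L1, ENSG00000285625, CCDC47, NKIRAS2, SYTL3, UBN2 and TRAPPC8. UBN2, which encodes a ubinuclein that acts with HIRA in H3.3 deposition, had 1.73, near the threshold, with 61.6% GC. A peak without UV lay outside the window of 1 kb but within 2 kb at ACBD5 (1251 bp from the 5′ end) and others. Among these were ENSG00000276087 (1349 bp), H3C6 (1358 bp) and UBN2 (1537 bp).

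The 70 promoters marked without UV only had lower-ranking peaks of lower GC. Their −log10 q had a median of 3.73, at the median percentile 32.5 among all peaks of the list without UV. The 52 after UV only had a median of 5.07, at percentile 42.2 of their own list, and the values of the lists cannot be compared directly because they depend also on library depth. The other promoters had the same order, with median percentiles of 37.1 without UV only and 57.5 after UV only. Of the 70, ABCC2, a pump for conjugates in liver and kidney, had the strongest peak, with a −log10 q of 18.2 and 295 bases of repeated words in an interval of 2171 bp and 41.9% GC. It too was decided by the window, since the interval overlapped a peak after UV whose near edge lay 1477 bp from the 5′ end, and this held also for NAALADL2 (8.31), LRRC17 (7.51) and ANGPTL5 (5.66). ARHGDIB had 14.5 with 46.6% GC at chr12:14960446-14960906 and 196 bases of repeated words, 1044 bp downstream, and no peak after UV lay within 3 kb. SLC35A3, the Golgi carrier of UDP-N-acetylglucosamine, had 9.04 at 76.4% GC and was with ANGPTL5 the exception above 55% GC. By the rule used above for the peaks after UV, 12 promoters without UV only had a −log10 q of at least 5 and no peak after UV within 3 kb, and a peak after UV lay within 3 kb at 26 of the 70. The latter is 37.1% (25.9 to 49.5%), close to the 39.7% (188 of 473) of the other promoters marked without UV only.

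Several had −log10 q values near 6.5: SRGN, the proteoglycan serglycin, and NACA, a chaperone of nascent chains, both 6.67, the connexin gene GJA9 and the overlapping ENSG00000274944, which shared 1 interval, 6.58, IFIT1 6.54, ENSG00000288564 6.36 and ENSG00000288914, which shared an interval with ENSG00000289360, 5.97. Of the strongest 12, the peaks of SLC35A3 and NAALADL2 were the ones without repeated words. The 29 without repeated words and at most 55% GC were lower, from NAALADL2 with 8.31 to KLRK1 and ENSG00000258461 with 1.44. A group of 7 promoters shared the same fold of 3.97 and −log10 q of 2.90, a pair of values that occurred in 2421 peaks of the list without UV: FAP, a surface protease of activated fibroblasts, at chr2:162245139-162245419, COL5A2, a fibrillar collagen chain, IFI16, a DNA sensor, PTGFR, a prostaglandin receptor, OR56B1, ZNF705A and LSMEM1. Other promoters without repeated words, chosen after their values were seen, were those of WWTR1, a co-activator of Hippo signalling also known as TAZ (2.12), SLC7A11, the cystine carrier (2.12), and SAMD9 (3.55). RAD1, a clamp subunit of the DNA damage checkpoint, had 2.08 and the co-repressor gene NCOR1 4.36, both with repeated words. A peak after UV lay outside the window of 1 kb but within 2 kb at several of these. Its distance from the 5′ end was 1127 bp at FAP, 1224 bp at ENSG00000288564, 1261 bp at RAD1, 1313 bp at SAMD9, 1372 bp at NACA and 1436 bp at NCOR1.

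The 130 promoters marked in both libraries had higher-ranking peaks, with a median percentile of 78.4 without UV and 81.1 after UV. At the other promoters in both lists these medians were 84.6 and 89.7. At 111 of the 130 (85.4%, 78.1 to 91.0%) the strongest peaks of both lists overlapped, against 89.2% (6016 of 6747) of the other promoters in both lists. ARSB, a lysosomal sulfatase, had a −log10 q of 120.6 without UV and 138.5 after UV, with 72.6 and 69.4% GC. KLF9, a transcription factor induced by glucocorticoids, had 63.2 and 140.8 with intervals of 1138 and 1239 bp in a non-coding part of an exon, 1119 and 1057 bp downstream. ENSG00000286224 had 62.9 and 79.3, NFAT5, the factor of the osmotic stress response, 48.8 and 72.8, and MYBL1, a MYB family factor, 41.5 and 79.9. KRTAP21-3, a keratin-associated gene of hair, had 64.9 and 66.5 at 39.6 and 39.5% GC, beyond the gene's far end in repeated words, the highest values of a peak of at most 45% GC at these promoters. ZNF131 had 42.0 and 60.2, but from different intervals, 697 bp upstream without UV and 1312 bp downstream after UV. Examples chosen after their values were seen, from no fixed list, were KDM3A, a demethylase of H3 lysine (24.0 and 47.9), and the bromodomain genes BAZ2B (24.0 and 50.7) and BAZ1A (12.2 and 46.0). The repair genes RAD50 (9.09 and 12.5) and RAD52 (6.66 and 17.0) were 2 more.

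The rank of a peak within its own list is given side by side for both lists. The lists differ in length and in GC content, so that a difference in percentile is not by itself a change at the promoter. The percentile was higher in the UV list at 62 of the 130 promoters (47.7%, 38.9 to 56.6%). Among the other promoters in both lists this held for 4388 of 6747 (65.04%, 63.9 to 66.2%), and the intervals do not overlap. The 2 peaks ranked at a promoter overlapped at 111 of the 130 and at 6016 of the 6747. At the rest the percentiles belong to different peaks. The following low-GC promoters were chosen after their values were seen, as examples whose percentiles lay apart. LBR, the lamin B receptor, was at percentile 57.9 without UV and 86.6 after UV, TYRO3, a receptor tyrosine kinase, at 42.6 and 85.1, and BAZ1A at 84.1 and 97.1, with 76.0, 69.6 and 68.5% GC after UV. NFKBIZ, an inducible regulator of NF-κB, was at 87.7 and 15.6 with 43.2% GC, SRPX2 at 85.8 and 39.96, and TTI2 at 97.2 and 67.0. KTN1 went the other way with 45.8% GC and repeated words, at 59.1 and 86.9, and EBF1 with 76.6% GC stood at 95.2 and 74.7.

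**Figure D5:**
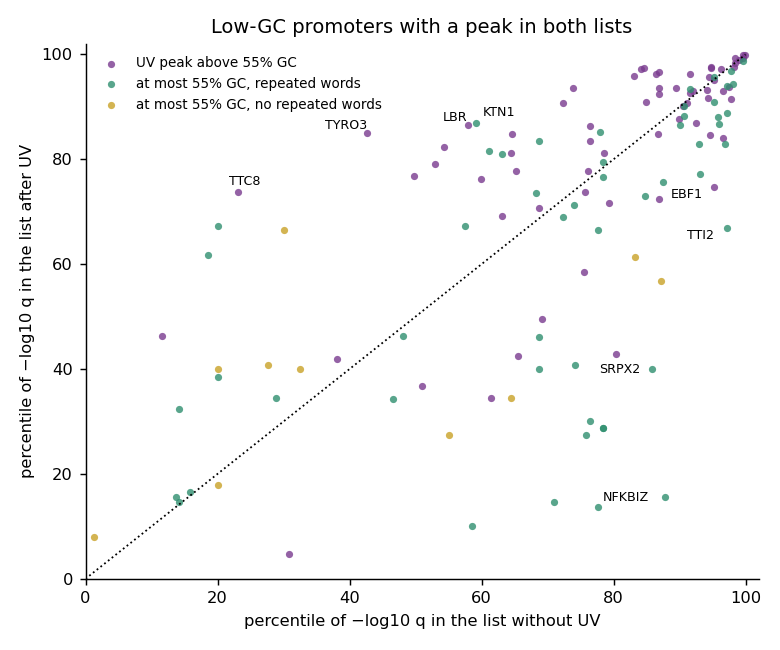
Percentile of the −log10 q of the strongest peak among all peaks of the list without UV (x axis) and of the list after UV (y axis), for the 130 low-GC promoters marked in both; colours give the kind of DNA under the peak after UV and the dotted line is equality. Points lie on both sides of the line, with NFKBIZ far below it (87.7 and 15.6) and TYRO3 above it (42.6 and 85.1).

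Over all low-GC promoters 9.75% (252 of 2585) had a peak in at least 1 list, and the gene families are given beside this share. Odorant receptors lay below it. Of 342 low-GC promoters of odorant receptors, OR14A2 was marked in both lists (−log10 q 9.64 and 17.3, in repeated words) and OR56B1 without UV only (2.90). In families this small a count of 0 or 1 says little beside that share. None of the 19 bitter taste receptors, 27 defensins, 18 interferons, 13 UDP-glucuronosyltransferases, 12 cornified envelope and S100 genes, 10 matrix metalloproteinases or 8 cytochrome P450 genes was marked. Of 30 keratin and keratin-associated genes, KRTAP21-3 and KRTAP20-4 were marked in both lists. Among 23 interleukins and chemokines, IL4 was marked in both and IL17D after UV only, among 14 C-type lectins CLEC3B after UV only, and among 9 serpins SERPINB11 in both. Of 26 zinc finger genes, ZNF131, ZNF546 and ZSCAN9 were marked in both, ZNF217 after UV only and ZNF705A without UV only.

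Against the same 9.75%, the lists below are too short for their counts to be read as more than the values of the genes named. The 3 replication-dependent histone genes of low GC were all marked, H4C3 in both lists (18.2 and 29.5, in repeated words beyond the gene's far end) and H2BC9 and H3C6 after UV only. Peaks without UV lay 1213 and 1358 bp from the 5′ ends of H2BC9 and H3C6. Of 12 fibroblast matrix and contractile genes, PDGFRA was marked after UV only and COL5A2 and FAP without UV only, and 9 had no peak. A peak after UV lay 1127 bp from the 5′ end of FAP. None of the 6 stress-induced secreted factors was marked, nor the 1 p53 target or the 1 nucleotide excision repair gene, and the list of immediate early genes had no low-GC promoter. A list of interferon-induced genes was added after the values were seen. Of its 22 low-GC promoters, IFIT2, IFIT3, IRF1 and PDCD1LG2 were marked in both lists, IFIT1, IFI16, GBP3 and SAMD9 without UV only, and none after UV only. Their percentiles without and after UV were 95.8 and 88.1 for IFIT2, 93.2 and 77.2 for IFIT3, 64.4 and 34.6 for IRF1, the interferon regulatory factor, and 55.1 and 27.4 for PDCD1LG2, the immune ligand PD-L2. Since the list was built from these values, its direction is not independent of them. The peak of IFIT1 held repeated words, whereas that of SAMD9 did not.

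Promoters marked in both lists or after UV only had more CpG around the 5′ end than those without a peak, and those marked without UV only were close to the latter. The median number of CpG dinucleotides within 500 bp was 16 (quartiles 9.25 and 25) in both lists, 13 (8 and 18) after UV only, 8 (5 and 10) without UV only and 7 (5 and 11) without a peak, against 65 at the other promoters. The other promoters ranked in the same order, with 80, 71, 55 and 48 in these classes. The ratio of observed to expected CpG was 0.388, 0.302, 0.208 and 0.192 at the low-GC promoters in this order. At the other promoters it was 0.799, 0.761, 0.692 and 0.611. The median GC content within the limit was 42.3% in both lists, 42.1% after UV only, 40.1% without UV only and 39.96% without a peak.

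Core promoter motifs were counted in the same classes. TATAAA, searched on the gene strand in the 40 to 20 bases before the 5′ end, was found at 6.62% of the low-GC promoters and 2.87% of all promoters. It occurred at 2 of 130 in both lists, 2 of 52 after UV only, 0 of 70 without UV only (0 to 5.13%) and 167 of 2333 without a peak (7.16%, 6.14 to 8.28%), so that its share in both lists (1.54%, 0.187 to 5.45%) and without UV only lay below that without a peak, with intervals that do not overlap. TGANTCA, the AP-1 element, searched on both strands in the 250 bases before the 5′ end, was found at 11.5% of the low-GC promoters and 5.46% of all, with 10.8% in both lists, 13.5% after UV only, 17.1% without UV only and 11.3% without a peak, and these 4 intervals overlap. CCAAT was found at 37.8% against 33.2% of all, and CACGTG, the E-box, at 2.67% against 7.17%. A match describes these letters only. The canonical start lay more than 500 bp from the searched 5′ end in 66.9% of low-GC promoters in both lists. This share was 45.7% without UV only and 33.7% without a peak, and motifs before a canonical start elsewhere were not searched.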

How the data were processed

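H3.3 ChIP-seq of MRC5 fibroblasts, 1 library without and 1 after UV, was analysed from the deposited peak lists. Per the submitters' processing notes and the study's methods, the authors used bcl2fastq 2.17, Trimmomatic 3.36, BWA 0.7.12 with hg38 and Biobambam2, which removed duplicate reads. The notes also name MACS 1.4.2, but intervals with several summits are not output of that version, and the caller's control and threshold for H3.3 were not given in the sources used here. The deposited columns hold a score, the fold enrichment (a ratio to local background), −log10 p and −log10 q of each summit. The score is 10 times −log10 q without decimals in 99.9961% and 99.9955% of peaks. The lists held 102949 and 89740 peaks, and read depth is unknown from them.

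Gene 5′ ends and canonical starts came from GENCODE release 44 and sequence from hg38. A promoter was marked when at least 1 bp of a peak interval lay within 1 kb, and the peak with the highest −log10 q described it. Repeated words were the 728 words of 13 bases with at least 100000 copies over the genome, and an interval held them when they covered at least 50 bases. Shares carry exact 95% Clopper-Pearson intervals. The named genes were the 12 strongest in 1 list only for each direction, the 6 strongest in both lists by each list, the promoters after UV only with −log10 q of at least 5 and no peak without UV within 3 kb, listed gene families with a peak, and the genes next to the GC limit. Further genes are said to be chosen after their values were seen. Some items are not reported here. The members and lists were chosen with earlier results of these data known. The overlap code was tested on simulated lists. The scripts ran under Python 3.11.15 with samtools 1.23.1, pysam 0.24.0, scipy 1.17.1, pandas 2.3.3, matplotlib 3.10.9 and numpy 2.4.6.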

Additional observations from a re-analysis of the deposited data

How the results depend on the processing

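The 11 settings planned and 6 added after seeing the data changed 1 choice at a time. Leaving out a replicate was not possible with 1 library per condition. No paired analysis was possible because each condition had 1 library and the values come from no test. The share marked after UV among low-GC promoters in 1 list only (42.6%) was below that of the other promoters (81.2%) in 15 of the 17 settings, the exceptions being peaks above 55% GC and peaks above 45 and up to 55% GC, and more low-GC promoters were marked after UV only than without UV only in 2 settings, peaks above 55% GC and the GC limit of 50%. Asking for no other gene start within 2 kb or for a low-GC canonical start changed the low-GC promoters only. So did counting each interval once, and in these settings the other promoters stayed unfiltered at 81.2%. With a window of 500 bp, 4.14% of members had a peak without UV and 3.95% after UV, 63 in both lists and 44 without UV only, and the other promoters' share was 84.7%. With 2 kb these were 12.1%, 11.4% and 232 in both, and 75.5% at the others. With the summit in the window, 6.19% and 5.57% had a peak. Peaks of −log10 q of at least 3 gave 6.34% without UV and 82.9% at the others, and those of at least 5 gave 4.95% and 4.91%, 34 after UV only, 35 without UV only and 86.7% at the others. The list without UV reduced to the length of the other gave 84.9% at the others. The GC limit of 40% gave 4.95% and 3.35%, with 28 in both, 14 after UV only, 34 without UV only and a share of 29.2%. The limit of 50% gave 11.7% and 12.03%, with 371, 147 and 132, and reversed the share to 52.7%. GC over 1 kb to each side gave 6.17% and 5.74%. The canonical start gave 5.05% and 3.75%, with 57 in both, 21 after UV only and a share of 30.4%. Members with no other gene start within 2 kb gave 6.28% and 5.62%.

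Of the added settings, members whose canonical start was also of low GC had peaks in 5.18% and 3.56%, with 49 in both, 17 after UV only and a share of 26.6%. Peaks of at most 45% GC gave 2.71% and 1.04%, 18 in both, 9 after UV only and a share of 14.8%, and turned the other promoters' share to 28.7%. Peaks above 45 and up to 55% GC gave 3.33% and 3.02%, 37 in both, and turned the other promoters' share to 41.9%. Peaks above 55% GC gave 2.55% and 3.44%, 63 in both, 26 after UV only, 3 without UV only, a reversed share of 89.7% and 86.7% at the others. Peaks without repeated words gave 4.49% and 4.06%, 75 in both, 30 after UV only and 41 without UV only. Counting each interval once moved no value beyond its counting interval. Of the genes named by rule, none reported in 1 list only moved to the other list alone, but ZNF546 and H4C3, reported in both, were in either list alone depending on the setting. A change of class was found for 41 of 55 with peaks of at most 45% GC, 36 with those above 45 and up to 55%, 30 with those above 55%, 26 without repeated words, 32 with a window of 500 bp, 14 with 2 kb, 16 with the summit in the window, 7 and 8 with −log10 q of at least 3 and 5, and 4 of 27 with the canonical start. Genes chosen after their values were seen were not followed in this way.

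The absence of a peak is the absence of a call at an unknown depth, not of H3.3. A peak in 1 list only can lie near the caller's threshold in both.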
